A study of Mus musculus with 2 samples.

Results

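The mouse T-cell receptor alpha (Tcra) and delta (Tcrd) genes share 1 locus on chromosome 14, and DNase-seq of thymus was used to map where that locus is open. DNase-seq lists as peaks the regions where the enzyme DNase I cuts the DNA of nuclei more than nearby, and footprints are short stretches that are cut less than their surroundings. Here 90.7% and 90.8% of the footprints of replicates 1 and 2 overlapped a peak. All peaks and footprints on chr14:52407928-54244206 of mm10 were taken, which is the locus with 20 kb on either side. Replicate 1 had 265 of its 132737 peaks and 681 of its 375374 footprints there, and replicate 2 had 151 of 69798 peaks and 316 of 210014 footprints. The samples were thymuses from B6CASTF1/J females (hybrids of C57BL/6J and CAST/EiJ), 10 days old, as 2 biological replicates in 1 untreated group with no control group. A thymus is a mixture of cells, so that fewer cells with an open region and less opening per cell cannot be told apart. The thymocyte list (Cd3e, Cd4, Cd8a, Rag1, Rag2, Ptcra, Lck) had a peak within 500 bp of a gene start for 7 of 7 genes in both replicates, the epithelial list for 1 of 3 (Epcam) and the erythroid list for 1 of 3 (Gata1).

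A T-cell receptor chain is assembled in thymocytes when the RAG recombinase joins a variable (V) segment, for delta also diversity (D) segments, and a joining (J) segment. Each segment is flanked by a recombination signal, a heptamer and a nonamer separated by a spacer of 12 or 23 bases, which RAG binds and cuts. The delta segments lie inside the alpha locus, so a V-to-J-alpha joining deletes them. Opening of the V promoters, of the germline promoter called TEA at the 5′ end of the alpha J segments, and of the enhancer called E-alpha behind the constant gene Trac is known to precede this joining. The annotation (GENCODE M21) placed 202 segments here: 136 V segments (115 genes and 21 pseudogenes), 2 D, 2 delta J and 60 alpha J segments, and the constant genes Trdc and Trac. Peaks were classed by midpoint into the V zone (1648 kb), the delta D-J-C zone from Trdd1 to the end of Trdc (35.4 kb), the alpha J zone (63.8 kb), Trac with its 3′ side (23.7 kb) and the stretches between.

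The regions on which the results turn are shown first, each as the part that the peak calls of both replicates shared, on the plus strand of mm10 and 5′ to 3′. Capitals mark bases that lay in a footprint of both replicates. The highest peak of the locus lay behind Trac (chr14:54227421-54227700, intergenic), the second in an intron of Dad1 (chr14:54239121-54239340), the highest of the stretch between Trdc and the alpha J segments 5′ of Traj61 (chr14:54152941-54153140, intergenic), and the highest of the alpha J zone over Traj49 (chr14:54168521-54168700).
highest peak 3′ of Trac: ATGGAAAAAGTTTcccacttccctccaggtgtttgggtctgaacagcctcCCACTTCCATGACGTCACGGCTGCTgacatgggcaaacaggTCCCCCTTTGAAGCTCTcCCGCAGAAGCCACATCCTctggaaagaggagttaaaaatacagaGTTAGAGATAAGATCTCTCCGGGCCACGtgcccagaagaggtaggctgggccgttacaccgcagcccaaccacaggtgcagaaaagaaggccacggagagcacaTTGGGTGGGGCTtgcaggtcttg
second peak 3′ of Trac: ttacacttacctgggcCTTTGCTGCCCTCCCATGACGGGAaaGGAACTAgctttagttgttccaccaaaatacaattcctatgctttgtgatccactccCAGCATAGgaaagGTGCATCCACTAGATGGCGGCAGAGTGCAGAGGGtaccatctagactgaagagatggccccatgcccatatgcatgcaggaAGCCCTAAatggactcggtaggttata
peak between Trdc and Traj61: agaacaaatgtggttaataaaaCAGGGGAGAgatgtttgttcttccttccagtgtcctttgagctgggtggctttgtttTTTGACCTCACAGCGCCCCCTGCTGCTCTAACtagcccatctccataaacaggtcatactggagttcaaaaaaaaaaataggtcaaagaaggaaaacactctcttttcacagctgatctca
peak over Traj49: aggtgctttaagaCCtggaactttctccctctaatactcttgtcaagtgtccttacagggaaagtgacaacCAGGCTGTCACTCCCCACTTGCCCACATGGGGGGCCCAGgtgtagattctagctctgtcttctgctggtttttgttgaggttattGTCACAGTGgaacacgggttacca
In the highest peak the letters TGACGTCA, a CREB/ATF site, stood at bases 60 to 67, inside a footprint of 27 bases in replicate 1 and 25 in replicate 2 that also held an ETS match (GGAAGT on the minus strand). The TCF/LEF letters CTTTGAA stood at bases 97 to 103 inside footprints of 17 and 36 bases, and the GATA letters AGATAA at bases 159 to 164 inside footprints of 28 and 30 bases. The RUNX letters TGTGGT (minus strand, bases 222 to 227) lay in a footprint of replicate 1 alone, and TGCGGT (minus strand, bases 211 to 216) touched a footprint of replicate 2 alone. A further replicate 1 footprint at bases 110 to 131 overlapped the replicate 2 footprint of 36 bases. It held none of the letters searched, and other forms of these sites were not searched. The second peak held the 12 letters CCACTAGATGGC, a match to the CTCF consensus, inside footprints of 35 and 34 bases. The peak 5′ of Traj61 had a footprint of 33 bases in either replicate, over the letters GCAGCAGGGGGC on the minus strand, which differ from the CTCF consensus at 1 of 12 positions. The Traj49 peak held the recombination signal of Traj49, and its widest footprint (41 and 39 bases) lay 5′ of that signal.

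Sequence upstream of V segments is shown for Trav1, the V segment farthest from Trac and the one with the highest mean start peak, and for the trio Trav10d, Trav10n and Trav10, near-identical copies that were picked for display after their values were seen. The Trav1 window is the 150 bases 5′ of its start (chr14:52427778-52427927); the others are the shared parts of the peaks (chr14:52810721-52810880, chr14:53121801-53122000 and chr14:53505501-53505660).
Trav1: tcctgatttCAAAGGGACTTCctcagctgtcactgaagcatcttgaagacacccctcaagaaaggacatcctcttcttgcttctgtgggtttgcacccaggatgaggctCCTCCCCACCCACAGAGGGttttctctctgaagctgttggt
Trav10d: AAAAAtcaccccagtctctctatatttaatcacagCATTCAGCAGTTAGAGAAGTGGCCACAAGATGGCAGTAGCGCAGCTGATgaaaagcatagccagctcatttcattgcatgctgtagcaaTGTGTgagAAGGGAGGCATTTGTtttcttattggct
Trav10n: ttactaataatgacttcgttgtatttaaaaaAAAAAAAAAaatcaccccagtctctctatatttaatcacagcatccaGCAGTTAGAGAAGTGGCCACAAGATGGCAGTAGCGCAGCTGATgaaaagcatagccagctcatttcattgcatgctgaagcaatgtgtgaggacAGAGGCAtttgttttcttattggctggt
Trav10: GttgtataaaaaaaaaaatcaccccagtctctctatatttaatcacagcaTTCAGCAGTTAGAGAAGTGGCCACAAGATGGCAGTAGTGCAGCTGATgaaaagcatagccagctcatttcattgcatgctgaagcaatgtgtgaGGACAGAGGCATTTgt
Each Trav10 copy held the letters CCACAAGATGGC, 1 mismatch from the CTCF consensus, followed by the E-box letters CAGCTG, both inside a footprint that was 49 and 49 bases wide at Trav10d, 47 and 43 at Trav10n, and 49 and 48 at Trav10. Placed in the surroundings of the other copies, the Trav10d stretch matched at 96.9% of its 160 bases in both. The Trav1 window held the letters of a TCF/LEF site (CTTTGAA, minus strand, bases 8 to 14) and an ETS site (GGAAGT, minus strand, bases 17 to 22), each overlapped by a footprint in both replicates.

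Peaks lay denser in the locus than in the genome. The region held 14.4 peaks per 100 kb in replicate 1 and 8.22 in replicate 2 (11.3 ± 4.39, mean ± SD, n = 2), against 5.01 and 2.64 over the whole genome and 4.27 and 2.21 over chromosome 14. By class, Trac with its 3′ side was densest with 97.1 and 50.7 peaks per 100 kb. The delta D-J-C zone had 53.7 and 25.4, the stretches between 15.2 and 19.8, the V zone 12.6 and 6.86, and the alpha J zone 7.83 and 6.27. The order of the last 3 depended on the measure: per 100 kb of unique sequence the V zone had a mean of 24.0 and the stretches between 18.8, and with the same number of highest peaks in each library the alpha J zone had 7.05 and the V zone 6.95. In either replicate every class lay above the genome's own density. The Tcrb locus had 14.8 and 6.89 peaks per 100 kb, close to the V zone in both replicates. The Tcrg locus had 4.58 and 2.29 and the immunoglobulin loci, which rearrange in B cells, had 8.75 and 3.63 (Igh) and 0.977 and 0.315 (Igk). Replicate 1 had more peaks than replicate 2 in each class except the stretches between, as it had in the whole genome.

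**Figure D1:**
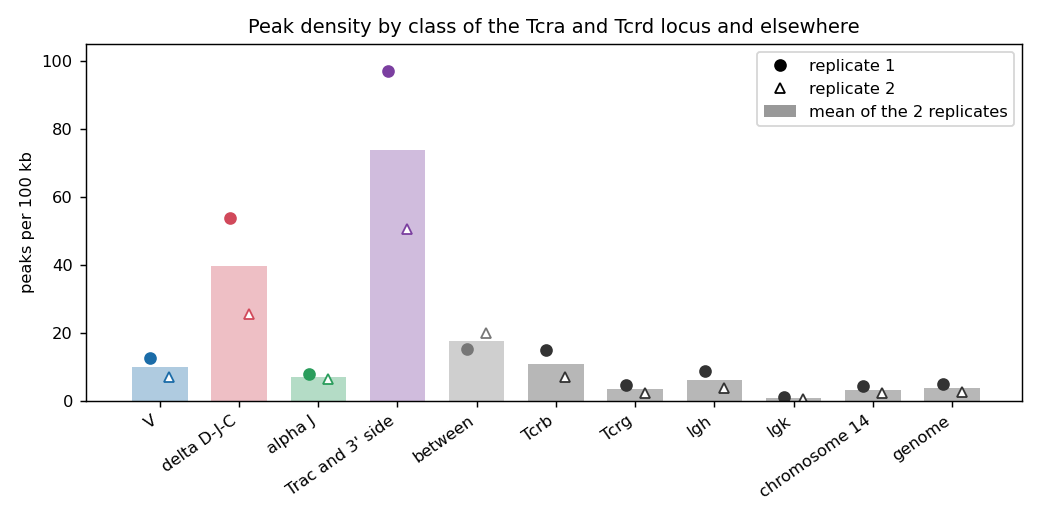
Peaks per 100 kb (y axis) in the 5 classes of the Tcra and Tcrd locus, in 4 other antigen receptor loci, on chromosome 14 and in the genome; bars are means of the 2 replicates, filled circles replicate 1 and open triangles replicate 2. Trac with its 3′ side (97.1 and 50.7) and the delta D-J-C zone (53.7 and 25.4) stand above the other classes in both replicates.

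Joined over both replicates, the peaks formed 284 regions, of which 121 had a peak in both, 137 in replicate 1 alone and 26 in replicate 2 alone. Of the locus peaks, 121 (45.7%) of replicate 1 were overlapped by a replicate 2 peak and 123 (81.5%) the other way, against 43.2% and 83.2% of all peaks of the libraries. These shares lay near those of the genome. The classes differed, however: 104 of 208 and 106 of 113 V-zone peaks were shared, 10 of 23 and 10 of 12 on the Trac side and 3 of 5 and 3 of 4 in the alpha J zone, but 1 of 19 and 1 of 9 in the delta D-J-C zone. Of the 121 shared regions, 107 were higher in replicate 1, with a median height ratio of replicate 1 over replicate 2 of 1.58 against 1.41 over all shared peaks of the genome. Across these regions, which share the 2 libraries and are no replicates, log2 heights had a Pearson r of 0.861 and the heights a Spearman rho of 0.831.

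**Figure D2:**
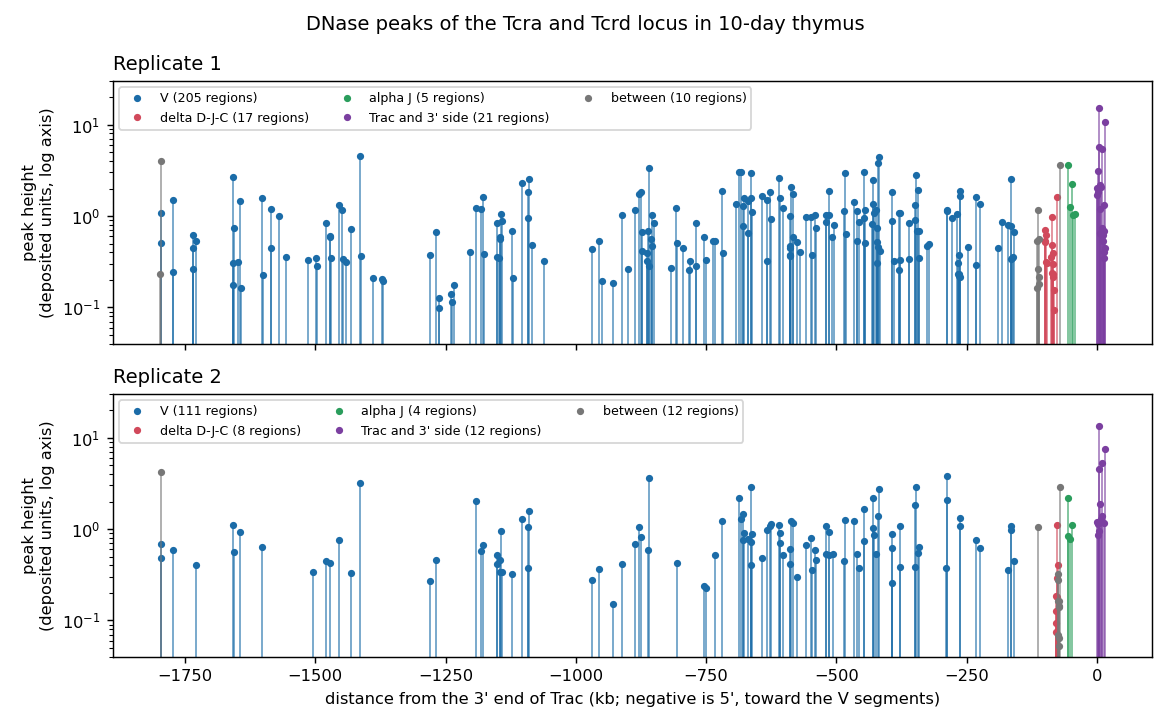
Height of each joined peak region (deposited units, log axis) against its distance from the 3′ end of Trac in kb, in replicate 1 (above) and replicate 2 (below), coloured by class. The highest points of both replicates, 15.2 and 13.5, stand just 3′ of Trac, and V-zone peaks are spread over the whole zone with wide gaps between.

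V segments encode most of the antigen-binding part of the chain, and each has its own promoter just 5′ of its leader exon. A peak lay within 500 bp of the start of 82 of 136 V segments in replicate 1 (60.3%), 55 in replicate 2 (40.4%) and 54 in both (39.7%), against 63.4%, 57.8% and 57.2% of protein-coding genes. Among V genes 47 of 115 had one in both replicates and among V pseudogenes 7 of 21. V starts with the 500 bp around them made up 8.17% of the V zone but held 51.9% and 56.6% of its peaks. The peak midpoints lay a median of 84.5 and 78.5 bp 5′ of the start, and 39 of the 54 shared ones lay 5′ of the start in both replicates. The segments had a median length of 530.5 bases, so the window of 500 bp also took in some peaks at their 3′ end. At Trav13-1 the counted peak had its midpoint 556.5 and 536.5 bp 3′ of the start. With a window of 250 bp, 46 V segments had a start peak in both replicates.

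The highest mean start peak belonged to Trav1, whose segment is used by mucosal-associated invariant T cells, with heights of 4.01 and 4.23 (4.12 ± 0.157, mean ± SD, n = 2). Its midpoint lay 5′ of the V zone, so it was counted with the stretches between. Trav10d followed with 4.57 and 3.20, and Trav17 with 4.41 and 2.76. Each of these stood above 92.0% of all replicate 1 peaks and above 83.7% of all replicate 2 peaks. Trav12-1 had 3.01 and 2.18, Trav3-4 had 3.06 and 1.65, and B230359F08Rik, annotated as a V gene, had 2.48 and 2.16. Trav11n, a copy of the V segment of invariant natural killer T cells that is annotated as a pseudogene, had 2.55 and 1.56. Trav2 had 2.70 and 1.12. Among these 8 segments only Trav1 was higher in replicate 2.

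V segments used for delta chains ranged from peaks in both replicates to none. Trdv1 had start heights of 1.92 and 0.550, Trdv2-2 had 1.88 and 1.09, and Trav21-dv12, which serves both chains, had 1.32 and 1.84. Trav19 had a start peak in replicate 1 alone (1.09) and a peak over its recombination signal in both (1.07 and 1.09). Trdv4, the nearest V segment 5′ of the D segments, had no peak in either replicate. Trdv5, which lies in inverted orientation behind Trdc, had a low start peak in replicate 2 alone (0.324). Of the 10 V segments named for both alpha and delta, 7 had a start peak in both replicates, and of the 6 named for delta alone, 3.

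A second group of peaks stood at the other end of the V segments, on the recombination signals. Plotted from the V start, 65 and 42 peak midpoints lay within 300 bp 5′ of it, 14 and 9 in the first 400 bases of the segment, and 34 and 27 between 400 and 700 bases in, where the segments (median length 530.5 bases) end. The signal of a V segment is the 39 bases that follow its last exon, and 129 of 136 began with CAC, 104 of them with the full heptamer CACAGTG. A peak overlapped the signal of 39 V segments in replicate 1 (28.7%), 30 in replicate 2 (22.1%) and 26 in both (19.1%), while 3.05% and 1.41% of all windows of 39 bases in the V zone overlapped one. Among the peaks that overlapped a signal, the midpoint lay a median of 18.5 and 20 bases from the signal's first base. Peaks picked by this overlap have a median midpoint near the signal's middle however they are placed, so this distance is no separate result.

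**Figure D3:**
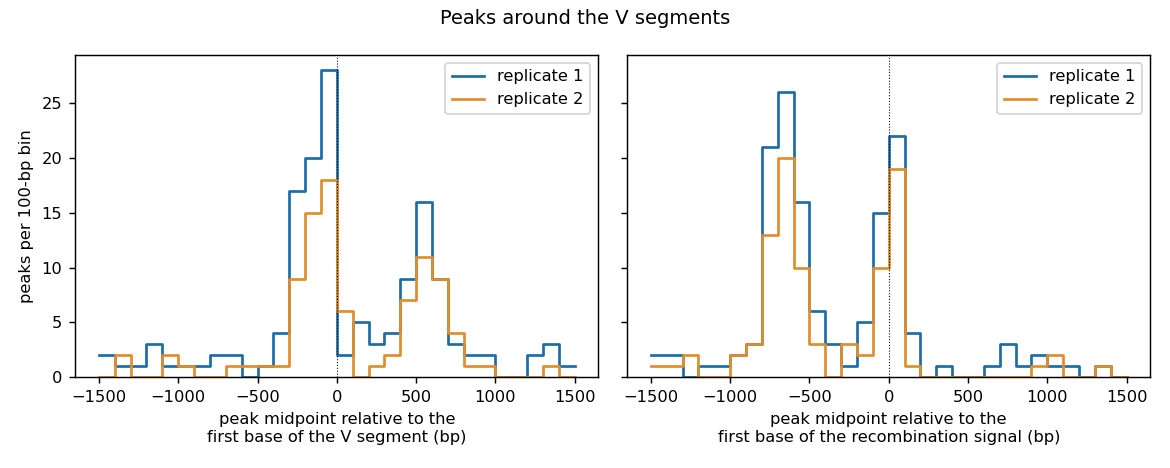
Number of peak midpoints per 100-bp bin around the 136 V segments, from the first base of the segment (left) and of its recombination signal (right), in both replicates; negative is 5′. In both replicates one mode lies within 300 bp 5′ of the start (65 and 42 midpoints) and the other within 100 bp of the signal's first base (37 and 29 midpoints).

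Of the 26 V segments with a peak on the signal in both replicates, 22 also had one within 500 bp of the start in both, and 4 did not. Where a replicate had both, they were separate peaks in 27 segments and a single call in 9 in replicate 1, and in 17 and 9 in replicate 2. A single call can be a signal peak that the start window of 500 bp also reached, as at Trav13-1 (1.30 and 1.45). The 22 segments include such cases, so their number does not count separate peaks at both ends. Most signal peaks were of middling height, with medians of 0.735 and 0.660. The 3 highest belonged to Trav13n-4 (3.36 and 3.63), Trav15-1-dv6-1 (2.96 and 2.90) and Trav21-dv12 (2.81 and 2.89). Of the 22 segments, 3 had a signal peak above the start peak in both replicates. A single call counted at both ends ties and could not be among them. The 4 segments without a start peak in both replicates were not compared. At Trav13n-4 the start had 0.678 and 0.585, lower than the signal in either replicate. None of the 26 was a pseudogene, 21 had the exact heptamer, and 20 belonged to segments without the d or n copy mark described below. The signals of these 3 are shown, heptamer and nonamer in capitals and the spacer of 23 bases in lower case, each read from the segment outward.
Trav13n-4 signal (chr14:53364107-53364145): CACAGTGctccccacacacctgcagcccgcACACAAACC
Trav15-1-dv6-1 signal (chr14:53560248-53560286): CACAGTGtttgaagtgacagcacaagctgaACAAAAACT
Trav21-dv12 signal (chr14:53876753-53876791): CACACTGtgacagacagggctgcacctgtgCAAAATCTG
The heptamer letters CACAGTG stood in the central 200 bases of 15.8% and 23.2% of locus peaks on either strand, against 6.14% and 5.99% of all peaks. The locus itself carries the signals, and its peaks include those on signals counted above, so this is no separate result. The share in locus sequence without a peak was not counted.

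Of the 104 shared V-zone regions, 50 lay within 500 bp of a V start alone, 12 on a signal alone and 14 on both, and 28 on neither. The 28 had median heights of 1.15 and 0.710. The highest of them, chosen here by height, lay 2079 bp from Trav17 (chr14:53804121-53804560, 3.77 and 1.37). The next lay 8326 bp from Trav22 in an intron of the antisense gene Gm43647 (chr14:53935921-53936240) and had heights of 1.13 in replicate 1 and 3.80 in replicate 2. Its ratio of 0.297 was the lowest of the locus, and 0.795% of all shared peaks of the genome had a ratio under 0.5. A neighbouring region of the same antisense gene (chr14:53935441-53935620) was also higher in replicate 2, at 1.18 and 2.10.

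Near-identical copies limit what can be read in the V zone. In the C57BL/6J assembly a block of V segments is repeated. Many of its copies carry d or n in their names, and others are unmarked. Only 40.6% of the positions of the V zone started a sequence of 31 bases found once in the genome, against 98.2% in the alpha J zone and 96.7% on the Trac side. A start peak in both replicates was found for 9 of 39 d copies, 9 of 34 n copies and 36 of 63 other V segments. The 2 longest stretches without a peak in either replicate (93.2 kb and 91.2 kb, with 11 segments each) had 0.934% and 0.823% such unique positions. Among 31 families with a d, an n and an unmarked copy, 20 had d and n copies with identical 150 bases 5′ of the start. In these, the d copy had a start peak in both replicates in 0 families, the n copy in 2 and the unmarked copy in 15. In the 11 families whose d and n copies differed, the counts were 8, 7 and 6. Trav11 shows the same at 1 family: Trav11n had heights of 2.55 and 1.56 with 50.4% unique positions in the 250 bases 5′ of its start, and Trav11d and Trav11 had no peak and 0% such positions. The labels and file headers do not say how reads that match several copies were placed, so that a copy without a peak cannot be told apart from a copy without placed reads.

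By distance from Trac, start peaks in both replicates were most frequent 400 to 600 kb away, with 16 of 20 V segments. The share was 5 of 10 at 200 to 400 kb, 10 of 20 at 600 to 800 kb, 6 of 22 at 800 to 1000 kb, 8 of 20 at 1000 to 1200 kb, 1 of 24 at 1200 to 1400 kb, 5 of 14 at 1400 to 1600 kb, 3 of 4 beyond and 0 of 2 within 200 kb. The median share of unique positions 5′ of the start was 100% in the bins of 0 to 200 and 200 to 400 kb, 57.4% at 400 to 600, 33.4% at 600 to 800, 0% at 800 to 1000, 2.6% at 1000 to 1200, 0% at 1200 to 1400, 41.0% at 1400 to 1600 and 98.6% beyond. A bin's median need not describe its segments with a peak. In the bin with 2.6%, the 8 of 20 segments with a start peak in both replicates ranged from 5.2% (Trav10n) to 70.8% (Trav9n-1). In the same bin Trav7n-4 (25.6%) and Trav16d-dv11 (14%) had no start peak in both replicates. Whether unique sequence sets these counts was not tested. Among the 38 segments without d or n in their names and with at least 50% unique positions, 22 had a start peak in both replicates. Among the 25 with fewer, 14 had one. These segments include the unmarked copies of the families above.

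**Figure D4:**
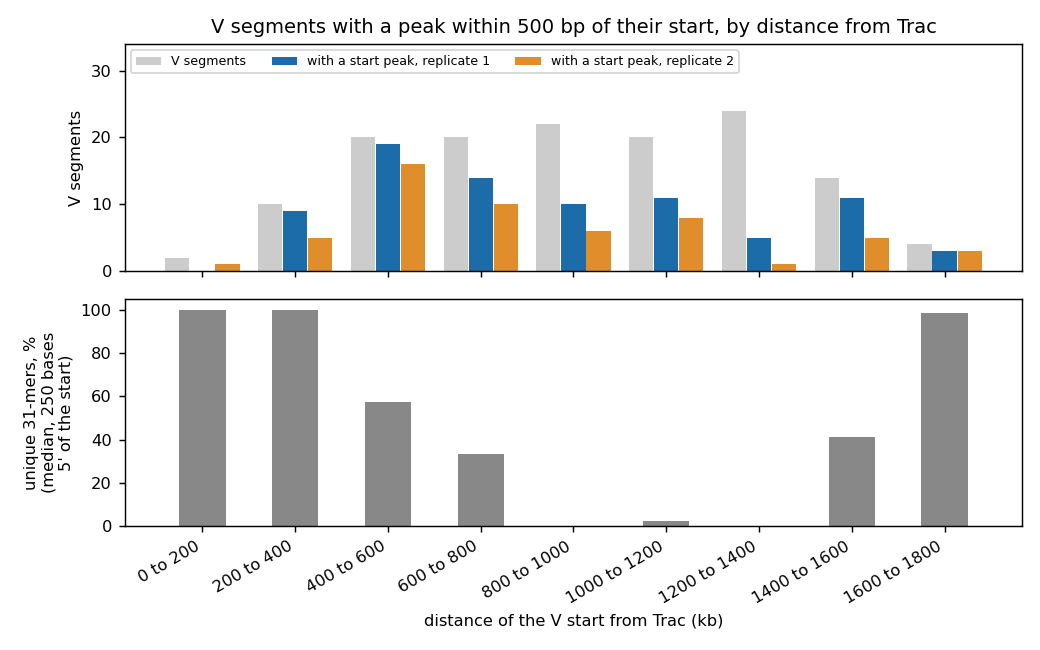
Above, V segments (grey) and those with a peak within 500 bp of their start in replicate 1 (blue) and replicate 2 (orange), in bins of 200 kb from Trac; below, the median percentage of unique 31-base positions in the 250 bases 5′ of the start. The bin of 1200 to 1400 kb, with 24 segments, 5 start peaks in replicate 1 and 1 in replicate 2, has a median of 0% unique positions.

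The delta D-J-C zone was covered by many low peaks, which the replicates placed in different stretches. Its median heights were 0.353 and 0.180, against library medians of 0.625 and 0.828. In replicate 1 the low peaks ran from 5′ of Trdd1 to just before Trdc. One lay over Trdd1 (0.556), one over Trdj2 (0.353) with another 264 bp away (0.984), and the one next to the start of Trdc had a height of 0.156. Replicate 2 had no peak from Trdd1 to the start of Trdc, and its low peaks ran over Trdc and Trdv5 up to chr14:54152340, with heights from 0.0521 to 0.400 apart from the shared region named below. Trdd2 and Trdj1 had no peak over them in either replicate. The zone's bases with a cut-rate FDR under 0.05 made up 19.8% and 10.1%, against 4.12% and 1.59% in the V zone. Its density thus came mostly from peaks that the other replicate did not have.

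The single shared region of that zone lay in the 3′ untranslated region of Trdc (chr14:54147621-54147848, 1.60 and 1.11), and its footprints numbered 2 in replicate 1 and 8 in replicate 2. Another shared region lay 2068 bp 5′ of Trdd1 in an intron of the antisense gene Gm30275 (chr14:54111201-54111400, 1.15 and 1.05), with 4 and 3 footprints. Of the 4 recombination signals of the D segments 2 lay under a replicate 1 peak and 0 under a replicate 2 peak, and of the 2 delta J signals 1 and 0.

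Between Trdc and the alpha J segments the peak 5′ of Traj61, whose sequence is given above, had heights of 3.59 and 2.90 (3.25 ± 0.486, mean ± SD, n = 2). It was higher than 90.8% of replicate 1 peaks and 84.5% of replicate 2 peaks. It lay 1865 bp 5′ of Traj61, on the side where the TEA promoter is known to drive germline transcripts through the alpha J segments.

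The alpha J zone had a few peaks, all in its 5′ part. Peaks covered 1.26% and 1.10% of the zone, against 1.12% and 0.534% of the genome. Within 250 bp of a segment, 4 of 60 alpha J segments had a peak in replicate 1, 3 in replicate 2 and 3 in both. The share of like windows elsewhere was not counted. Traj49, next to which a germline promoter is known, had the highest (3.64 and 2.20), then Traj42 (2.25 and 1.09) and Traj47 (1.27 and 0.771). Traj37 had a peak in replicate 1 alone (1.04), and a peak 252 bp from Traj48 was in replicate 2 alone (0.834). Traj61 to Traj52, with Traj58 and Traj56 among them, had no peak over 10 segments in either replicate. The peaks covered the recombination signals of Traj49 and Traj42 in both replicates. The Traj49 signal, with its spacer of 12 bases, reads as follows from the segment outward (minus strand, chr14:54168658-54168685).
Traj49 signal: CACTGTGacaataacctcaACAAAAACC

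From 3′ of Traj37 past Traj1 and Trac, 43.0 kb with 35 alpha J segments held no peak and no footprint in either replicate. This stretch had 98.2% unique positions, and 2 and 0 of its bases had a cut-rate FDR under 0.05. The body and the start of Trac itself had no peak in either replicate. Another stretch without a peak in either replicate, of 43.5 kb around Trdv4, had 96.0% unique positions. Whether stretches of this length are unusual at the peak density of the genome was not tested.

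Behind Trac the locus was at its most open. Peaks covered 33.1% of the Trac class in replicate 1 and 10.1% in replicate 2, and 63.1% and 17.5% of its bases had a cut-rate FDR under 0.05. The median heights were 1.18 and 1.33, and 10 of its regions were found in both replicates. The highest, at 15.2 and 13.5 (14.4 ± 1.19, mean ± SD, n = 2), stood above 99.8% of all replicate 1 peaks and 99.0% of all replicate 2 peaks. Joined over both replicates it began 3175 bp past the end of Trac. It lay where E-alpha is known, the enhancer that drives Trac transcription and V-to-J-alpha joining, and held 9 and 7 footprints. Next to it, 3715 bp past Trac, a region reached 5.63 and 4.55 with 11 and 6 footprints.

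The other shared regions formed a chain toward Dad1, the neighbouring gene of a subunit of the oligosaccharyltransferase that is expressed in most cells. At 815, 1600 and 2615 bp past Trac the heights were 2.00 and 1.20, 1.81 and 1.14, and 3.08 and 0.857. At 4855 and 6995 bp they were 2.19 and 1.87, and 2.08 and 1.28. At 9095 bp the heights were higher again, 5.46 and 5.29 (5.37 ± 0.117, mean ± SD, n = 2). At 12715 bp, in a Dad1 intron, the heights were 1.31 and 1.16. At 14895 bp, in a Dad1 intron, the region with the CTCF letters had 10.8 and 7.42 (9.11 ± 2.39, mean ± SD, n = 2), the second highest of the locus in both replicates. The Dad1 start, past the end of the region studied, had 6.69 and 7.55. The regions found in replicate 1 alone on this side had heights from 0.347 to 1.71.

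**Figure D5:**
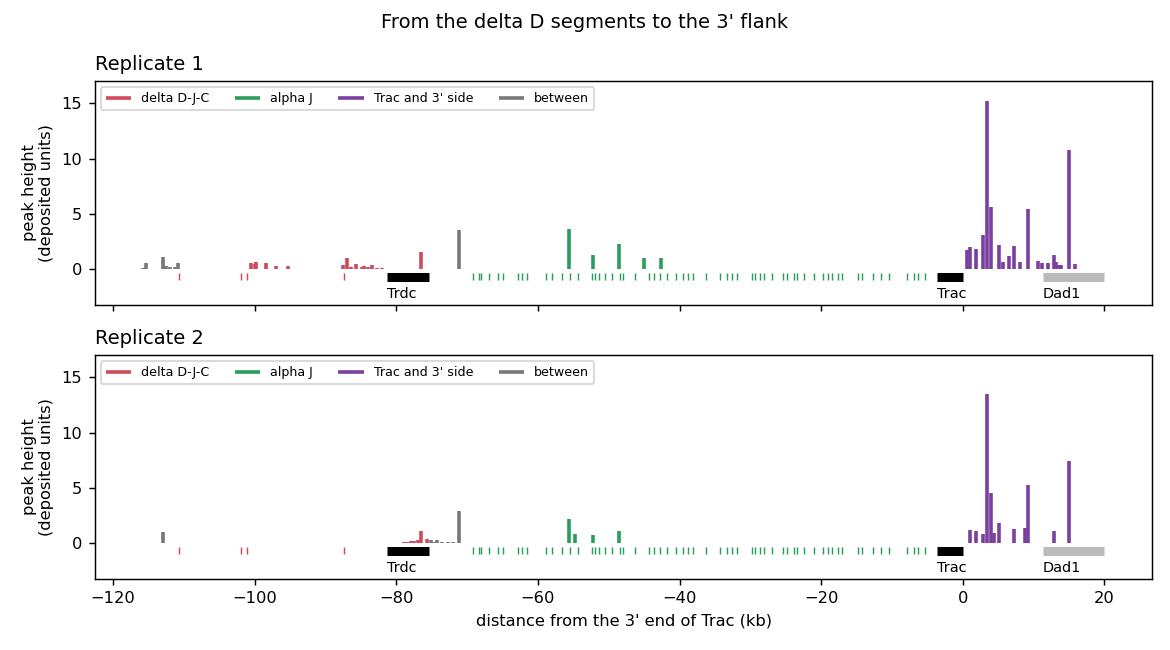
Peak heights (deposited units) from the delta D segments to the 3′ flank, by distance from the 3′ end of Trac in kb, in both replicates; green ticks are alpha J segments, red ticks delta D and J segments, bars the genes Trdc, Trac and Dad1. The peak at Traj49 (3.64 and 2.20) and those 3′ of Trac (up to 15.2 and 13.5) flank 43.0 kb without a peak.

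Footprints followed the peaks. In the region 81.9% and 79.5% of peaks held a footprint, against 74.7% and 83.9% of all peaks. Of the locus footprints 167 of 681 (24.5%) and 172 of 316 (54.4%) were overlapped in the other replicate, against 33.5% and 61.8% of all footprints. Footprints per 100 kb were 401.1 and 173.1 on the Trac side, 115.8 and 28.2 in the delta zone, 30.95 and 14.6 in the V zone, 28.9 and 22.8 between and 25.1 and 14.1 in the alpha J zone.

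Motif letters were counted on both strands in the central 200 bases of peaks, as a description of sequence. The E-box letters CAGGTG or CAGCTG stood in 52.3% and 49.2% of the shared peaks at V starts, against 33.5% and 37.4% of all peaks and 52.5% and 60.9% of the shared V-zone peaks away from V starts. The RUNX letters TGTGGT or TGCGGT stood in 43.1% and 39.3%, against 22.4% and 21.2% of all peaks, and in 14 of 40 and 16 of 46 of those away from V starts. ETS letters (GGAAGT) stood in 13.8% and 13.1%, against 20.1% and 19.2% of all peaks and 22.5% and 15.2% of those away from V starts. The full CTCF consensus stood in 8 of 65 and 8 of 61 shared V-start peaks (12.3% and 13.1%), against 5.29% and 6.28% of all peaks. Of the shared V-zone peaks away from V starts, 1 of 40 and 1 of 46 had it. With 1 mismatch allowed, a search added after the data were seen, the shares were 33.8% and 32.8% against 19.0% and 19.0%. Away from V starts they were 17.5% and 15.2%. Upstream of V starts without a peak in either replicate, the CTCF consensus was no rarer, at 10 of 53 against 6 of 54 with a peak in both. The 53 include copies such as Trav12d-1 and Trav12n-1, with 0% unique positions 5′ of the start. In such copies a missing peak cannot be told apart from missing placed reads. The CREB/ATF letters of the highest peak stood in 0.639% and 1.00% of all peaks, TCF/LEF letters in 8.49% and 6.24% and GATA letters in 8.19% and 5.33%. Some recombination signals themselves hold the E-box letters, as those of Trav13n-4 and Trav21-dv12 do (CAGGTG on the other strand). V-zone peaks at and away from V starts both include peaks on signals. What part of the E-box shares this makes up was not tested.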

How the data were processed

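DNase-seq libraries of 2 thymuses were read from files the authors deposited on mm10, made per library and not pooled, per the README deposited with each sample. The authors' signal is the height of each peak, in whole multiples of 1 step per library. The deposited q-value columns hold the FDR of the cut rate (listed under 0.05) and, for footprints, the constant 0.01. Aligner, callers and read depth are not given in the sources used here, so counting intervals cannot be given. DNase I cuts some sequences more readily, and whether footprints were corrected for this is not given either. The animals carry 1 CAST/EiJ genome, whose differing reads may be placed less often on mm10; this was not tested.

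The larger of each library's pair of peak files was used (the smaller one holds 93790 and 46467 peaks). Segments are from GENCODE M21 and sequence from GRCm38.p6; no peak ended past that assembly's chromosomes. Overlap means at least 1 bp. V starts were extended by 500 bp and alpha J segments by 250 bp. Footprint, peak and motif counts were made with Python 3.11.15, pandas 2.3.3 and numpy 2.4.6, and interval functions were tested on simulated data. With 1 group of 2 samples no test was made. Named are, per class, the 3 highest shared peaks, all shared peaks 3′ of Trac, the 8 highest V starts and a list of segments from Trav1 to Dad1. Members, lists and motifs were chosen with earlier results of these data known. The result of 1 marker list is not reported here. The 31-base uniqueness, the stricter file, equal numbers of peaks and other windows were tried as alternatives.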

Additional observations from a re-analysis of the deposited data

How the results depend on the processing

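With 1 group of 2 animals, only the spread between the replicates can be given. Peaks were densest on the Trac side and next in the delta zone in each replicate, in the stricter peak file, with equal numbers of peaks, with overlapping calls joined and per unique sequence. Only when peaks were classed by segments extended by 500 bp did the delta class come first. Read depth is unknown, so what it limits could not be measured.

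In all, 36 of 64 alternative values moved by less than the replicate SD, or for counts by at most 1.5 times, among them 36 V segments with a start peak in both replicates in the smaller peak file, against 54. The causes of the others were not tested beyond what the settings themselves change. Heights divided by the library median and footprints per 100 kb covered by peaks have another unit than the main value. The tally therefore does not measure how stable the results are. Classed by segments extended by 500 bp, peaks per 100 kb were 50.8 (V), 76.9 (delta) and 4.61 (between), and footprints 121.3 (V) and 9.84 (between). Per unique sequence the V zone had 24.0 peaks per 100 kb and passed the stretches between. With the same number of highest peaks in each library, densities were 18.4 (delta) and 12.2 (between) and median heights 0.899 (V), 0.511 (delta), 1.57 (Trac side) and 1.88 (between). In the smaller peak file, densities were 3.92 (alpha J) and 13.7 (between), median heights 0.976 (V), 1.95 (alpha J) and 3.30 (Trac side), and 17 V recombination signals lay under a peak in both replicates, against 26, a count whose alternatives were added after the data were seen. Divided by the library median, heights were 0.941 (V), 0.391 (delta), 1.60 (alpha J) and 1.75 (Trac side). With alpha J segments extended by 500 bp, 5 had a peak in both replicates. Per 100 kb covered by peaks, footprints were 1149 (V), 582 (delta), 1632 (alpha J), 1086 (Trac side) and 705 (between), an order unlike that of the zones. Leaving out each replicate, the V segments with a start peak numbered 55 to 82. No paired analysis was possible because there is 1 group.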
